A study of Mus musculus with 12 samples.

Results

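Guidance genes of the semaphorin, ephrin, Slit and netrin systems were followed in mouse retinas during oxygen-induced retinopathy (OIR). The set was chosen by gene symbol alone and holds every gene named Sema3 to Sema7, Plxna to Plxnd, Epha, Ephb, Efna, Efnb, Slit1 to Slit3, Robo1 to Robo3, Ntn with a number, Unc5a, Unc5c, Unc5d or Dcc. It came to 65 of the 36131 genes counted, 35374 of which had a symbol. The members were 7 class 3 semaphorins, 13 membrane semaphorins, 9 plexins, 8 ephrins, 14 Eph receptors, 6 Slits and Robos, and 8 netrins and their receptors. Nrp1, Nrp2, Unc5b and Robo4 belong to the same systems, fall outside the naming rule and are given beside the members.

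RNA-seq was performed on retinas of 12 wildtype C57BL/6J mice at P18, with 1 retina library per animal and 4 animals per group. RA-PBS mice (animals 1 to 4) stayed in room air and received PBS. O2-PBS mice (animals 5 to 8) breathed 75% O2 for 5 days from P7 and were back in room air at P12, and they also received PBS. O2-IC100 mice (animals 9 to 12) had the same exposure and received IC100, a humanized antibody against the inflammasome adaptor ASC, at 10 µg/g. All injections fell on P12, P14 and P16. The labels give the intraperitoneal route for both agents, whereas the study's text describes intravitreal injection for the PBS placebo, so the route of the control injection is not certain. No RA-IC100 retinas were analysed here, so IC100 was compared only in mice with earlier O2 exposure. IC100 was given from the day of the return to room air, and all retinas were taken at P18. Below, under O2 is short for O2-PBS against RA-PBS and does not mean that retinas were taken in high O2.

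Guidance cues tell growing axons and vessel sprouts where to turn. Class 3 semaphorins are secreted and signal through neuropilin and plexin receptors, while the other semaphorins are mostly anchored in the membrane and bind plexins directly. Ephrins are bound to the cell surface, and both the ephrin and its Eph receptor can signal into their own cell. Slits act through Robo receptors and netrins through Dcc and Unc5 receptors. In the retina these cues are known for steering ganglion cell axons and sorting synaptic layers, and some of the same molecules pattern blood vessels. Sema3e and its receptor Plxnd1 shape vessel sprouting, Sema3a repels vessels, and Efnb2 and Ephb4 mark arteries and veins.

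Total counts ran from 14907143 to 24438082 per retina, and guidance genes took 0.211 to 0.283% of the counts in 11 retinas. At this depth 3 counts, taken as the limit of detection in a library, equal 0.144 to 0.181 normalized CPM, which is the count relative to the library size as scaled by the TMM method. The tissue label held in those 11 retinas, where 10 rod photoreceptor genes took 4.23 to 5.25% of the counts. O2-IC100 animal 10 stood apart: crystallin genes of the lens took 59.0% of its counts, rod genes took 0.341% and guidance genes took 0.0975%. Counts of changed members are therefore given for all 12 retinas and for the 11 retinas without animal 10, and other tests are for the 11 retinas unless 12 are named. With 12 retinas, Plxnd1 under O2 was the 1 member in any of the comparisons with an adjusted p under 0.1. Among RA-PBS retinas, the sum of 11 lens genes was 10.7 CPM in animal 1 and 6565, 25871 and 7681 CPM in animals 2, 3 and 4, against 4.94 to 68.8 CPM in O2-PBS and 11.7 to 33.4 CPM in the other O2-IC100 retinas. RA-PBS animal 4 also had 5544 CPM summed over 9 oligodendrocyte genes, where 10 of the other retinas had 54.8 to 65.7 CPM and animal 10 had 535 CPM. Y-linked RNA was high in animals 1, 2, 3, 8, 9, 11 and 12 and near 0 in the rest, so sexes were uneven between the groups. In whole-retina RNA, fewer cells of a type and less RNA per cell cannot be told apart.

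Earlier hyperoxia was addressed by comparing O2-PBS with RA-PBS, after the return to room air. Changed genes are those that met 3 thresholds in edgeR's two-sided quasi-likelihood test: 1.5-fold or more, p below 0.05, and below 0.1 after Benjamini-Hochberg adjustment. Of the 65 members, 63 passed the filter on low counts, and Plxnb3 and Ntn5 did not. With 11 retinas, 5 members rose (Plxnd1, Efna1, Ephb4, Sema6d and Sema3b) and 2 fell (Sema3c and Sema3d). These 7 of 63 compare with 6.27% of all 16688 genes tested, 4.09% higher and 2.18% lower. With all 12 retinas, Plxnd1 was the 1 member that changed, and 0.807% of the 16489 genes tested did, 0.782% higher and 0.0243% lower. The median log2 fold change of the 63 members was -0.12, and that of all genes was -0.01.

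For IC100, O2-IC100 was compared with O2-PBS. With 11 retinas, Plxnd1, Sema3b and Sema6d fell and no member rose. These 3 of 63 compare with 0.947% of all genes tested, 0.731% in the lower direction. With all 12 retinas, edgeR called 0 members and 0 genes in all, DESeq2 called 1 member (Plxnd1) and 125 genes, limma voom called 0 members and 2 genes, and unadjusted p in edgeR was below 0.05 for 8 members and for 2784 genes in all. Between O2-IC100 and RA-PBS, Ntn1 was lower with 11 retinas, which is 1 member of 63 against 1.56% of all genes, 0.617% in the lower direction. With 12 retinas 0 members were called in that comparison by edgeR, DESeq2 or limma voom, and 11 had unadjusted p below 0.05 in edgeR. The 3 comparisons share groups, so their values are given side by side and are not independent of each other.

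**Figure D1:**
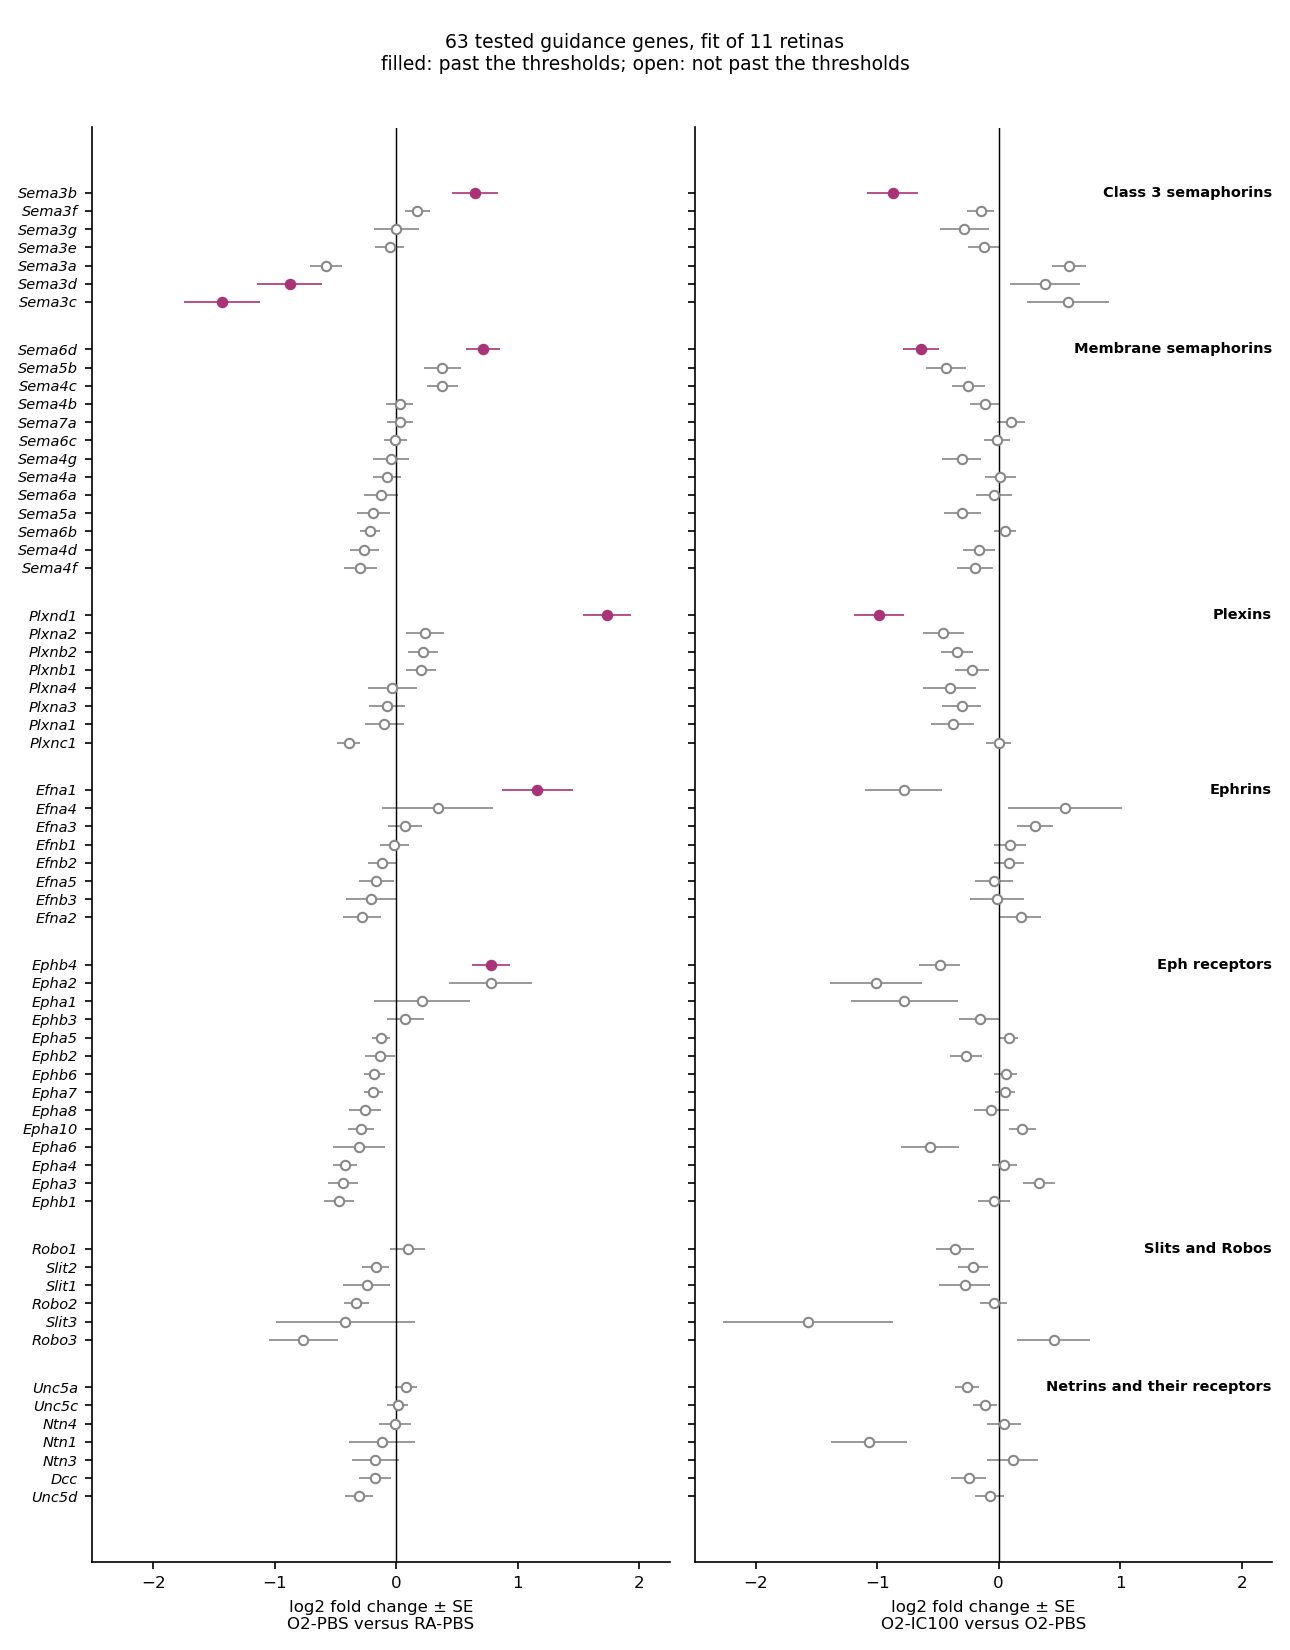
log2 fold changes of the 63 tested guidance genes with their standard errors in the fit of 11 retinas, for O2-PBS against RA-PBS on the left and O2-IC100 against O2-PBS on the right, grouped by role. Filled points passed the thresholds: 7 members on the left, led by Plxnd1 at 1.73, and 3 members on the right, all below 0.

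Groups that did not overlap at all were also counted. Between O2-PBS and RA-PBS, 5 members had every O2-PBS retina above every RA-PBS retina and 9 had every one below, in a table where 14.4% of all genes were apart, 7.8% upward and 6.56% downward with 11 retinas and 7.81% and 6.63% with 12. Between O2-IC100 and O2-PBS without animal 10, 4 members were apart upward and 24 downward, against 35.2% of all genes, 18% upward and 17.3% downward. Those 24 included 7 of the 8 tested plexins and 6 of the 13 membrane semaphorins. With animal 10, 1 member (Sema3a) was apart upward and 10 downward, against 20.8% of all genes, 10.1% and 10.7%. Between O2-IC100 and RA-PBS without animal 10, 2 members were apart upward and 12 downward, against 10.7% of all genes, 5.18% upward and 5.49% downward. With animal 10, 0 were apart upward and 8 downward, against 5.84% of all genes, 2.57% upward and 3.27% downward.

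Plxnd1 (ENSMUSG00000030123), the plexin through which Sema3e acts on endothelial cells, had the largest log2 fold change of the set between O2-PBS and RA-PBS. It measured 13.4, 14.1, 22.9 and 13.7 CPM in the RA-PBS retinas. The O2-PBS retinas had 71.0, 41.9, 42.6 and 58.0 CPM. In the O2-IC100 retinas it was 25.6, 29.4 and 25 CPM in animals 9, 11 and 12 and 10.9 CPM in animal 10. Every O2-PBS retina lay above every other retina of the study, and animals 9, 11 and 12 lay between the RA-PBS and O2-PBS ranges. The rise under O2 was 3.33-fold, a log2 fold change of 1.73 ± 0.20 (SE) with an adjusted p of 0.000205 in 11 retinas and 0.0384 in 12, and it was called in all 22 alternative fits of the 11 retinas. Against O2-PBS, O2-IC100 retinas were lower by -0.98 ± 0.21 on the log2 scale in 11 retinas (adjusted p = 0.0659) and by -1.23 ± 0.30 in 12 (adjusted p = 0.287). That call was kept in 15 of 22 alternatives and was lost at an adjusted p threshold of 0.05, without any 1 of animals 5, 8, 9, 11 and 12, and with Y-linked RNA as a covariate (adjusted p 0.118 to 0.283). O2-IC100 retinas still had 0.75 ± 0.21 more than RA-PBS on the log2 scale, with an adjusted p of 0.109 in 11 retinas.

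**Figure D2:**
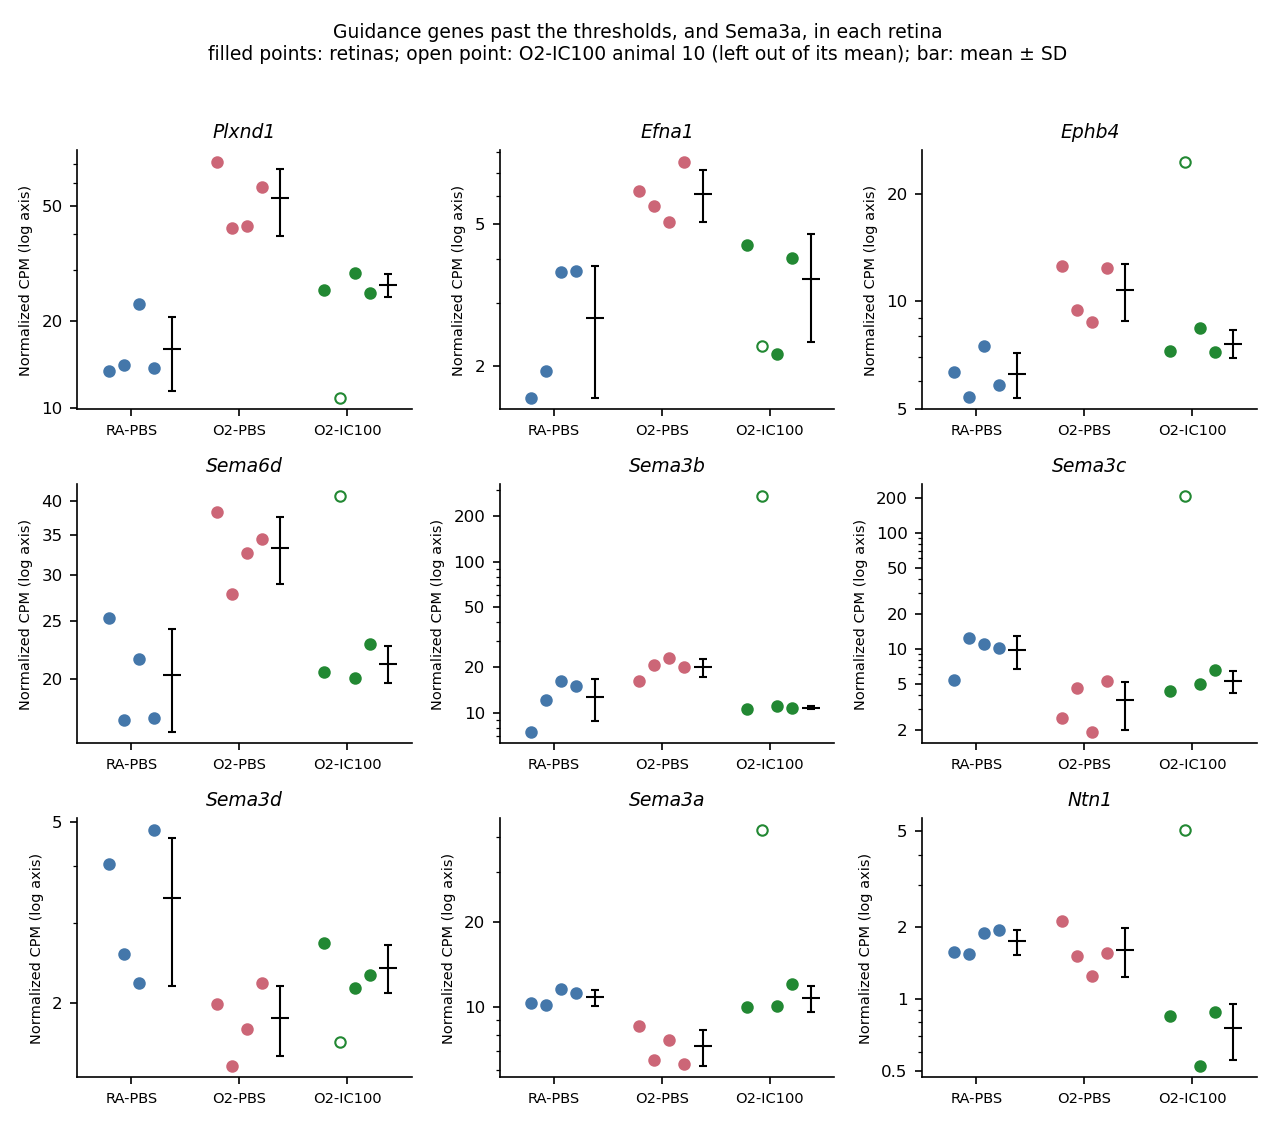
Normalized CPM (log axis) of the 8 guidance genes past the thresholds in 11 retinas, and of Sema3a, in each of the 12 retinas. Filled points are retinas, the open point is O2-IC100 animal 10, and bars give the mean ± SD with animal 10 left out. Plxnd1 sat between 41.9 and 71.0 CPM in O2-PBS, above all other retinas.

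No other plexin passed. The 8 tested had log2 fold changes of -0.39 to 1.73 between O2-PBS and RA-PBS. Plxnc1, the receptor of Sema7a, was 29.3, 26.9, 28.9 and 24.5 CPM in RA-PBS and 21.3, 19.3, 23.0 and 20.2 CPM in O2-PBS. The 2 groups did not overlap, and the log2 fold change was -0.39 ± 0.09 with an adjusted p of 0.0225, which is under the fold threshold. In O2-IC100 animals 9, 11 and 12 Plxnc1 was 21.2, 22.0 and 19.1 CPM, the last just below the O2-PBS range. Plxna2, a receptor for several semaphorins, had a log2 fold change of 0.24 ± 0.16 under O2 and -0.46 ± 0.17 in O2-IC100 against O2-PBS, with adjusted p-values of 0.402 and 0.198.

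Promoters of 4 of the 5 members that rose under O2 with 11 retinas are shown. Each is the 250 bases before the first base of the transcript (RefSeq, GRCm38.p6). Capitals mark each ACGTG or GCGTG on either strand, the core letters that hypoxia-inducible factors are known to bind. The windows are chr6:115995006-115995255 on the minus strand for Plxnd1, chr2:124089719-124089968 on the plus strand for Sema6d, chr3:89280952-89281201 on the minus strand for Efna1 and chr5:137349859-137350108 on the plus strand for Ephb4.
Plxnd1: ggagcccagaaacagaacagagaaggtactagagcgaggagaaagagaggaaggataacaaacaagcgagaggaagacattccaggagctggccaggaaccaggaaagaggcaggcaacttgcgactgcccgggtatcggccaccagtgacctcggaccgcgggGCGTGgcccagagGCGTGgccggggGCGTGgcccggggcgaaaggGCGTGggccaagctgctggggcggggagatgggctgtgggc
Sema6d: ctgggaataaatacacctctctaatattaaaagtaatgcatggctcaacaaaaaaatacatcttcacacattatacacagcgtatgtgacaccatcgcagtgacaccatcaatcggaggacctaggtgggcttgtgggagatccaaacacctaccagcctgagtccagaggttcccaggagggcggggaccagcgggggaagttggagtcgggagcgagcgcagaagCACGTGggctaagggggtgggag
Efna1: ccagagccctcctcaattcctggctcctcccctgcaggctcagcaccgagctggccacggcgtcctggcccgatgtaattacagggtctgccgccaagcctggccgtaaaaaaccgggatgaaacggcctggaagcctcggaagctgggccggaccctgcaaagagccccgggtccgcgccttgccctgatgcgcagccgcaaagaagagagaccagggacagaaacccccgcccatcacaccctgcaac
Ephb4: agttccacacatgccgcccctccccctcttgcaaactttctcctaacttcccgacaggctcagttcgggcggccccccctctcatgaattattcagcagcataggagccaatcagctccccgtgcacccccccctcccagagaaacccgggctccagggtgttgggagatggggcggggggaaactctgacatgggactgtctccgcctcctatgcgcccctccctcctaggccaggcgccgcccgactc
Plxnd1 held 4 matches, all GCGTG. In Sema6d the letters CACGTG were counted once on each strand, and Efna1 and Ephb4 held 0 matches in these windows. The windows shown serve 1 of 5 transcripts for Plxnd1, 1 of 5 for Ephb4 and 1 of 3 for Efna1, and no promoter was matched for Sema3b. The Sema6d window shown serves 2 of its 11 transcripts, and another at chr2:124653331-124653580, which serves 8 of them, held 0 matches. A further Efna1 window also held 0 matches. Of all 32851 promoters of this length, 38.6% held at least 1 match and 2.58% held at least 4, a count chosen after the Plxnd1 sequence was seen. Promoters were matched for 55 of the 65 members, and 29 of their 71 windows, 40.8%, held at least 1 match. A match describes letters in a window and was not tested as a binding site.

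Among the class 3 semaphorins, 3 of 7 changed under O2 with 11 retinas and in both directions, where 6.27% of all genes changed. With 12 retinas 0 of the 7 changed, against 0.807% of all genes. Sema3c (ENSMUSG00000028780), a secreted cue that signals through neuropilins and Plxnd1, was 5.33, 12.4, 10.9 and 10.1 CPM in RA-PBS. It was 2.53, 4.59, 1.92 and 5.27 CPM in O2-PBS, so all 4 O2-PBS retinas were below all RA-PBS retinas, although animal 8 nearly met animal 1. The log2 fold change was -1.43 ± 0.31 with an adjusted p of 0.0138 in 11 retinas and 1.00 in 12. RA-PBS animal 1, the retina of that group with the least lens RNA, was also its lowest in Sema3c. With the lens gene sum as a covariate in edgeR the log2 fold change was -0.57 with an adjusted p of 0.286. Lens RNA was high in RA-PBS animals 2, 3 and 4 and low in all O2-PBS retinas, so that fit can hardly tell lens RNA from group. Over all genes it called 3128 under O2, against 1046 without the covariate. Animal 10, with the most lens RNA, had 206 CPM of Sema3c. O2-IC100 animals 9, 11 and 12 had 4.31, 4.99 and 6.52 CPM, a log2 fold change of 0.57 ± 0.34 from O2-PBS that did not pass (adjusted p = 0.357).

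Sema3d (ENSMUSG00000040254), also secreted, was 4.04, 2.56, 2.22 and 4.79 CPM in RA-PBS. In O2-PBS it was 1.99, 1.46, 1.75 and 2.22 CPM, and the highest O2-PBS retina nearly met the lowest RA-PBS retina. Its log2 fold change was -0.88 ± 0.27 with an adjusted p of 0.0631 in 11 retinas and 0.375 in 12. This call was lost without any 1 of animals 1, 4, 5, 6 and 7 (adjusted p 0.116 to 0.178). Animals 9, 11 and 12 had 2.71, 2.16 and 2.30 CPM.

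Sema3b (ENSMUSG00000057969), a secreted semaphorin studied as a tumor suppressor, rose under O2 and was lower with IC100. It measured 7.52, 12.2, 16.3 and 15.1 CPM in RA-PBS and 16.3, 20.6, 23.0 and 20.0 CPM in O2-PBS. Animals 3 and 5 overlapped, at 16.3 CPM each after rounding. Animals 9, 11 and 12 had 10.6, 11.1 and 10.8 CPM, below all O2-PBS retinas and within the RA-PBS range, and animal 10 had 272 CPM. Under O2 the log2 fold change was 0.65 ± 0.19 (adjusted p = 0.0529 in 11 retinas and 1.00 in 12). O2-IC100 differed from O2-PBS by -0.87 ± 0.21 on the log2 scale in 11 retinas (adjusted p = 0.0963). With animal 10 the difference turned to 1.92 ± 0.97 (adjusted p = 0.320). The O2 call was lost without animal 1, 6, 7 or 8, and the IC100 call without any 1 of the 7 animals compared (adjusted p 0.157 to 0.331).

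Sema3a (ENSMUSG00000028883), a repellent of vessels and axons that ganglion cells can make, had lower levels in O2-PBS and came just short of the fold threshold. Its levels were 10.3, 10.2, 11.7 and 11.2 CPM in RA-PBS and 8.56, 6.52, 7.69 and 6.32 CPM in O2-PBS. In O2-IC100 animals 9, 11 and 12 had 10.1, 10.1 and 12.1 CPM, and animal 10 had 42.3 CPM. All O2-PBS retinas were thus below all retinas of both other groups. The log2 fold change was -0.58 ± 0.13 under O2 (adjusted p = 0.0159) and 0.58 ± 0.14 in O2-IC100 against O2-PBS (adjusted p = 0.0957), just short of the fold threshold in both cases. It was called in 8 of 22 alternatives under O2 and in 1 of 22 for O2-IC100 against O2-PBS. With 12 retinas the adjusted p-values were 1.00 and 0.287. Between O2-IC100 and RA-PBS the log2 fold change was 0.00 ± 0.14 in 11 retinas. In the same retinas 10 ganglion cell genes summed to 1052 to 1555 CPM in RA-PBS, 854 to 961 CPM in O2-PBS and 1092 to 1126 CPM in O2-IC100 without animal 10. Of these genes, 1 fell under O2 and 0 changed in O2-IC100 against O2-PBS, where 6.27% and 0.947% of all genes changed. Sums of 4 horizontal cell genes were 108 to 167, 81.6 to 95.1 and 110 to 117 CPM in the same order. The sum of homeostatic Muller glia genes was likewise lowest in O2-PBS, while amacrine and bipolar sums in O2-IC100 overlapped those of O2-PBS. The part of these cells in the Sema3a levels was not tested.

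The 3 remaining class 3 semaphorins did not pass in any comparison. Sema3e, the ligand of Plxnd1, had a mean of 20.8 ± 1.85 CPM in RA-PBS, and its log2 fold change was -0.05 ± 0.12 under O2 and -0.12 ± 0.13 in O2-IC100 against O2-PBS. Sema3f, a ligand of Nrp2, had the highest level per kilobase of merged exon in the set, 33.5 CPM per kb in RA-PBS. Its log2 fold change under O2 was 0.17 ± 0.10 (adjusted p = 0.345). Sema3g, known from arterial endothelium, was 4.69 to 7.18 CPM in RA-PBS and 5.06 to 7.65 CPM in O2-PBS.

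Sema6d (ENSMUSG00000027200), a transmembrane ligand of A plexins, was the 1 of 13 membrane semaphorins to change. RA-PBS retinas had 25.4, 17.0, 21.6 and 17.1 CPM. O2-PBS retinas had 38.3, 27.8, 32.7 and 34.5 CPM, all above the RA-PBS range. Animals 9, 11 and 12 were within the RA-PBS range at 20.5, 20.1 and 22.9 CPM, while animal 10 had 40.8 CPM. Under O2 its log2 fold change was 0.72 ± 0.14 (adjusted p = 0.00665 in 11 retinas and 0.371 in 12) and -0.64 ± 0.15 in O2-IC100 against O2-PBS (adjusted p = 0.0882 in 11 retinas and 0.417 in 12). With the lens gene sum as a covariate in edgeR the rise under O2 was 0.40 with an adjusted p of 0.118, in a fit that can hardly tell lens RNA from group. The IC100 call was lost without any 1 of animals 5, 7, 8, 9, 11 and 12 (adjusted p 0.172 to 0.311). The other membrane semaphorins had log2 fold changes of -0.29 to 0.38 under O2. Sema4c, a ligand of Plxnb2, had an adjusted p of 0.0879 at a log2 fold change of 0.38 ± 0.13, which is under the fold threshold.

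Efna1 (ENSMUSG00000027954) is a cell-surface ephrin that binds EphA receptors and is known from endothelial cells. It was a low gene, at 1.63, 1.93, 3.66 and 3.69 CPM in RA-PBS. O2-PBS retinas had 6.21, 5.63, 5.09 and 7.48 CPM, with no overlap. Animals 9, 11 and 12 had 4.37, 2.16 and 4.02 CPM and animal 10 had 2.27 CPM, all below O2-PBS, with animals 9 and 12 above the RA-PBS range and the other two within it. The rise was 1.16 ± 0.29 on the log2 scale (adjusted p = 0.0263 in 11 retinas and 0.261 in 12) and was called in 22 of 22 alternative fits of the 11 retinas. O2-IC100 against O2-PBS was -0.78 ± 0.31 and did not pass, with an adjusted p of 0.219. The 7 other ephrins lay between -0.28 and 0.34 under O2. Efnb2, the arterial ephrin, measured 28.1, 37.4, 28.8 and 26.7 CPM in RA-PBS and 24.7, 25.8, 30.5 and 30.7 CPM in O2-PBS, and its log2 fold change was -0.12 ± 0.11 (adjusted p = 0.600).

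Ephb4 (ENSMUSG00000029710), the venous receptor of Efnb2, was the 1 of 14 Eph receptors to change. It was 6.34, 5.41, 7.49 and 5.84 CPM in RA-PBS and 12.5, 9.44, 8.76 and 12.4 CPM in O2-PBS. Animals 9, 11 and 12 had 7.24, 8.40 and 7.21 CPM, all below O2-PBS, with animals 9 and 12 inside the RA-PBS range and animal 11 above it, and animal 10 had 24.5 CPM. The rise was 0.78 ± 0.16 on the log2 scale (adjusted p = 0.00886 in 11 retinas and 0.734 in 12), and it was called in 22 of 22 alternative fits of the 11 retinas. O2-IC100 against O2-PBS was -0.48 ± 0.17 with an adjusted p of 0.185.

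With 11 retinas, several Eph receptors had adjusted p-values under 0.1 with log2 fold changes short of the fold threshold, and with 12 retinas 0 of the 14 did. Epha4, which binds ephrins of both classes, was 57.0, 56.1, 48.1 and 42.2 CPM in RA-PBS and 36.8, 39.3, 39.4 and 36.0 CPM in O2-PBS. The groups did not overlap and the log2 fold change was -0.42 ± 0.10 with an adjusted p of 0.0180 in 11 retinas and 0.192 in 12. In O2-IC100, animals 9, 11 and 12 had 38.8, 36.3 and 41.2 CPM, near the O2-PBS values. Ephb1, which directs the uncrossed ganglion cell axons at the optic chiasm, was 21.5, 22.8, 16.7 and 23.5 CPM in RA-PBS and 15.9, 15.6, 14 and 15.7 CPM in O2-PBS. Its log2 fold change was -0.47 ± 0.12 (adjusted p = 0.0293), and O2-IC100 was -0.50 ± 0.13 from RA-PBS (adjusted p = 0.0864). Epha3 had -0.44 ± 0.12 under O2 and an adjusted p of 0.0440. In all, 10 of the 14 Eph receptors had negative log2 fold changes under O2 and 5 were apart downward, in a table where 6.56% of all genes were.

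Epha2, an epithelial and vascular receptor of Efna1, varied within groups. It was 5.22, 4.30, 10.8 and 4.69 CPM in RA-PBS and 18.6, 7.40, 7.97 and 8.92 CPM in O2-PBS. Animal 3 stood high in the first group and animal 5 in the second. The log2 fold change was 0.78 ± 0.34 (adjusted p = 0.203), and it was called without animal 3. Epha6 was 4.88, 6.09, 5.27 and 3.84 CPM in RA-PBS and 3.46, 2.78 and 1.91 CPM in animals 9, 11 and 12. That is a log2 fold change of -0.87 ± 0.24 with an adjusted p of 0.106, just outside the threshold.

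No Slit or Robo passed in any comparison of the 11 retinas by edgeR, though DESeq2 called Robo3 under O2 and Slit3 in O2-IC100 against RA-PBS. Slit2, a secreted repellent at 6.08 CPM per kb of merged exon in RA-PBS, was 144, 193, 156 and 125 CPM in RA-PBS and 152, 127, 132 and 140 CPM in O2-PBS, with a log2 fold change of -0.17 ± 0.11. Robo2, its axonal receptor, was 109, 92.7, 88.8 and 72.8 CPM in RA-PBS and 75.0, 68.7, 75.4 and 70.5 CPM in O2-PBS. The groups overlapped through RA-PBS animal 4, and the log2 fold change was -0.33 ± 0.10 with an adjusted p of 0.0687. Robo1 had 0.10 ± 0.14 under O2 and -0.36 ± 0.16 in O2-IC100 against O2-PBS, with adjusted p-values of 0.746 and 0.241. Robo3 had -0.76 ± 0.28 under O2 with an adjusted p of 0.122.

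Among the netrins and their receptors, Ntn1 (ENSMUSG00000020902), the secreted ligand of Dcc and Unc5 receptors, was a low gene. It was lower in O2-IC100 than in RA-PBS, groups that differ in both O2 exposure and IC100. It was 1.57, 1.55, 1.89 and 1.95 CPM in RA-PBS and 2.11, 1.51, 1.24 and 1.55 CPM in O2-PBS. In O2-IC100, animals 9, 11 and 12 had 0.852, 0.528 and 0.882 CPM, below all 8 PBS retinas, and animal 10 had 5.05 CPM. The log2 fold change from RA-PBS was -1.19 ± 0.31 (adjusted p = 0.0910), and with animal 10 it was -0.03 ± 0.59 (adjusted p = 0.983). The call was kept in 7 of 22 alternative fits and was lost without any 1 of animals 2, 3, 5, 6, 7, 8, 9, 11 and 12 (adjusted p 0.106 to 0.317). Against O2-PBS the log2 fold change was -1.07 ± 0.31 with an adjusted p of 0.142. No receptor passed in these comparisons. Dcc had -0.17 ± 0.13 under O2 (adjusted p = 0.487), Unc5c had 0.01 ± 0.09 (adjusted p = 0.945) and Unc5a had 0.08 ± 0.09 (adjusted p = 0.654). Ntn4, a netrin of basement membranes, had -0.01 ± 0.13.

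The partner genes outside the naming rule include receptors known from endothelium. Unc5b, the vascular netrin receptor, was 9.65, 15.2, 16.9 and 17.0 CPM in RA-PBS and 34.2, 32.3, 26.6 and 34.4 CPM in O2-PBS. Its rise of 1.12 ± 0.16 on the log2 scale passed in 12 retinas (adjusted p = 0.0469) and in 11 (adjusted p = 0.000849), and in O2-IC100 it was lower than in O2-PBS by -0.84 ± 0.17 (adjusted p = 0.0528 in 11 retinas and 0.287 in 12). Robo4, the endothelial Robo, rose by 1.34 ± 0.20 in 11 retinas (adjusted p = 0.00164) and did not pass in 12 (adjusted p = 0.287). In O2-IC100 against O2-PBS Robo4 differed by -1.38 ± 0.22 in 11 retinas (adjusted p = 0.0267), and in 12 the adjusted p was 0.287. Nrp1, the coreceptor of Sema3a and VEGF, rose by 0.85 ± 0.15 (adjusted p = 0.00331 in 11 retinas and 0.0574 in 12), and Nrp2 did not pass at 0.29 ± 0.14. In a list of 18 coreceptors and other cues that holds these genes, 4 rose under O2 and 2 fell in O2-IC100 against O2-PBS in 11 retinas, where 6.27% and 0.947% of all genes changed, and the median log2 fold change under O2 was -0.11. With 12 retinas the counts were 2 and 0. Of 37 cytoplasmic effectors such as kinases and collapsin response mediators, 1 rose under O2, the actin regulator Vasp at 0.65 ± 0.11 (adjusted p = 0.00324). With 12 retinas 0 of the 37 passed. Mical2, an actin-oxidizing enzyme, was 1 effector lower in O2-IC100 than in RA-PBS, at -0.66 ± 0.14 (adjusted p = 0.0532).

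Endothelial, mural and reactive glial RNA moved with several of these genes, and RNA of homeostatic Muller glia went the other way. The sum of 11 endothelial genes was 206 to 295 CPM in RA-PBS, 456 to 527 CPM in O2-PBS and 327 to 366 CPM in O2-IC100 animals 9, 11 and 12, and 10 of the 11 genes rose under O2 with 11 retinas, and 2 with 12. Of 9 tip cell and tuft genes, 9 rose with 11 retinas and 6 with 12. They summed to 29.3 to 54.1 CPM in RA-PBS, 149 to 285 CPM in O2-PBS and 84.1 to 107 CPM in animals 9, 11 and 12. Of 9 pericyte and mural genes, which summed to 170 to 205 CPM in RA-PBS, 361 to 529 CPM in O2-PBS and 310 to 376 CPM in animals 9, 11 and 12, 8 rose with 11 retinas and 1 with 12. Of 7 reactive glia genes, 3 rose under O2 and 2 were lower in O2-IC100 than in O2-PBS with 11 retinas, and 1 and 0 with 12. Their sums overlapped, at 251 to 712 CPM in RA-PBS, 617 to 879 CPM in O2-PBS and 389 to 511 CPM in animals 9, 11 and 12. The sum of 6 homeostatic Muller glia genes was 2390 to 3663, 1878 to 2228 and 2323 to 2490 CPM in the same order. Of these, 2 fell under O2 and 1 was higher in O2-IC100 than in O2-PBS with 11 retinas, and 0 and 0 with 12. In O2-IC100 against O2-PBS, 3 of the 11 endothelial, 3 of the 9 tip cell and tuft and 3 of the 9 mural genes were lower with 11 retinas. With 12 retinas 0 were in each of these lists. For comparison, 6.27% of all genes changed under O2 with 11 retinas and 0.807% with 12. Between O2-IC100 and O2-PBS these shares were 0.947% and 0%. Set against the endothelial sum in the same retina, Plxnd1 was 4.65 to 7.78% in RA-PBS, 8.99 to 14.1% in O2-PBS and 6.83 to 8.45% in animals 9, 11 and 12. The O2-PBS values were above those of all these retinas, while animal 10, with an endothelial sum of 64.9 CPM, had 16.7%. Ephb4 was 2.13 to 2.84%, 1.85 to 2.50% and 1.97 to 2.41% of the sum, and the 3 groups overlapped. Sema6d overlapped as well, at 6.69 to 8.79% in RA-PBS and 6.10 to 7.63% in O2-PBS, and Efna1 was 0.564 to 1.79% in RA-PBS and 1.07 to 1.42% in O2-PBS. These shares are of the endothelial sum alone. None was taken of the tip cell and tuft sum, which was also higher in O2-PBS than in RA-PBS. The shares are descriptions, and the part of endothelial, mural or glial cell number in each result was not tested.

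**Figure D3:**
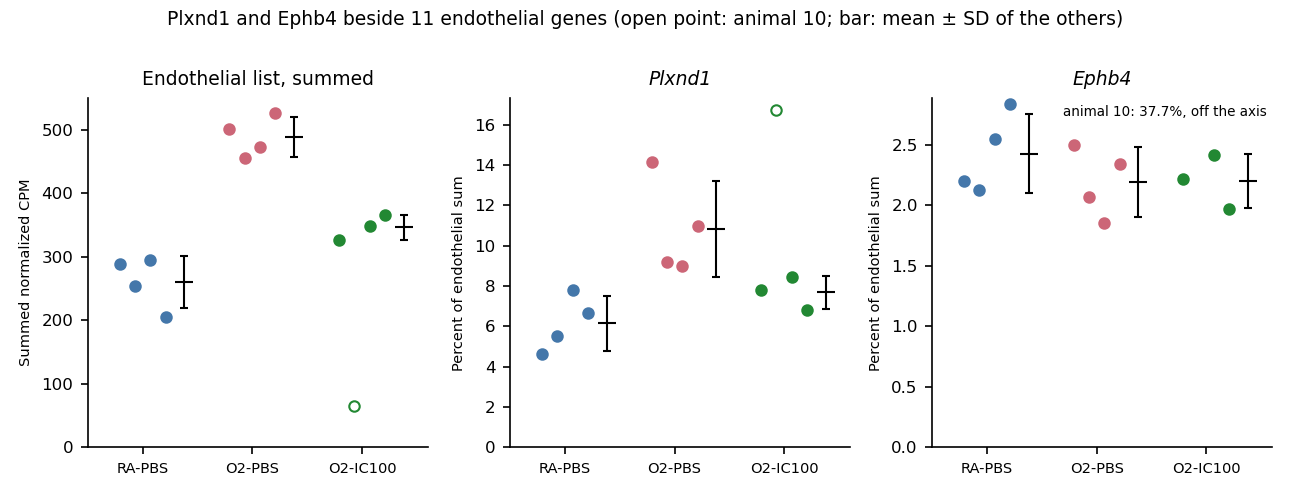
Sum of 11 endothelial genes in normalized CPM (left), and Plxnd1 (middle) and Ephb4 (right) as a percent of that sum, in each retina by group, with the open point for O2-IC100 animal 10 and bars for the mean ± SD of the others. Plxnd1 is at 8.99 to 14.1% in O2-PBS and below 8.5% in RA-PBS and in O2-IC100 animals 9, 11 and 12, while the Ephb4 ranges overlap.

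The uneven sexes could be set aside only in part. O2-PBS animal 8 was the 1 retina of its group with high Y-linked RNA, as were O2-IC100 animals 9, 11 and 12. Within these retinas Plxnd1 was 58.0 CPM in animal 8 and 25 to 29.4 CPM in the IC100 retinas. Sema6d was 34.5 against 20.1 to 22.9 CPM, and Sema3b was 20.0 against 10.6 to 11.1 CPM. Sema3a was 6.32 against 10.1 to 12.1 CPM. These directions are those of the whole groups, but 1 retina on a side allows no test. With Y-linked RNA as a covariate in edgeR, 0 members and 39 genes in all passed between O2-IC100 and O2-PBS in 11 retinas, and with 12 retinas 18 members and 3484 genes did. Animal 10 was the only O2-IC100 retina with low Y-linked RNA, at 4.04 CPM against 283 to 324 CPM. The fit of 12 retinas can therefore hardly tell Y-linked RNA from that lens-rich library. The log2 fold changes in 11 retinas with that covariate were -1.14 for Plxnd1, -0.78 for Sema6d and -0.74 for Sema3b. Under O2 both sexes could be compared, each with 1 retina on a side. Plxnd1 differed by 1.82 on the log2 scale among retinas with high Y-linked RNA and by 1.85 among those with low. In the same order Ephb4 differed by 0.93 and 0.77, Sema6d by 0.71 and 0.92, and Sema3b by 0.79 and 0.39. The sexes were further apart for Efna1, at 1.62 and 0.58, Sema3c, at -0.75 and -1.75, and Sema3d, at -0.33 and -1.35.

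Markers of other tissues moved with some members. RA-PBS animal 4, with its oligodendrocyte RNA, had 9.00 CPM of Plxnb3, a plexin of oligodendrocytes, where the other RA-PBS retinas had 0 to 0.333 CPM. It also had 43.1 CPM of Efnb3 against 20.0 to 24 CPM and 62.4 CPM of Sema4d, known from myelin, against 39.4 to 46.8 CPM. Robo1 was lowest in this retina, at 16.1 CPM against 23.3 to 24.5 CPM. Without animal 4, 8 members passed between O2-IC100 and RA-PBS: Plxnd1 was higher, and Ntn1, Epha6, Plxna1, Plxna4, Sema5a, Slit1 and Slit3 were lower. In that fit 925 of all 16603 genes passed, against 261 of 16688 with the retina kept. Without animals 3, 4 and 10, a fit added after the data were seen, 9 members passed under O2, the 7 named above with Epha2 and Epha4, beside 1527 of all 16868 genes tested. In that fit 7 members were lower in O2-IC100 than in O2-PBS: Plxnd1, Sema3b, Sema6d, Efna1, Epha2, Ntn1 and Slit3, beside 357 genes lower in all.

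The lens-rich O2-IC100 retina had a guidance profile of its own. Against the mean of animals 9, 11 and 12, 11 of the 65 members were at least 4-fold higher in animal 10 and 21 at least 4-fold lower. These ratios depend on the TMM scaling, with a factor of 0.324 in animal 10 and 1.11 to 1.15 in the other 3. Relative to total counts, every ratio would be lower, so fewer members would be 4-fold higher and more 4-fold lower. Slit3 stood at 67.9 against 0.404 CPM, Sema3c at 206 against 5.27 CPM, Epha2 at 171 against 5.25 CPM, Sema3b at 272 against 10.8 CPM and Plxnb2 at 557 against 90.8 CPM. Dcc stood at 1.77 against 24.2 CPM, Unc5d at 2.15 against 26.7 CPM and Sema4g at 6.69 against 70.5 CPM. The higher members came from every role, and 6 of the 14 Eph receptors, but 0 of the 9 plexins, were at least 4-fold lower. Pigment epithelium and red blood cell genes were also high in this retina, at 9944 and 8241 CPM against 173 to 179 and 99.8 to 130 CPM, so these levels cannot be assigned to lens alone. Animal 10 is 1 retina, and these ratios have no replicate.

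**Figure D4:**
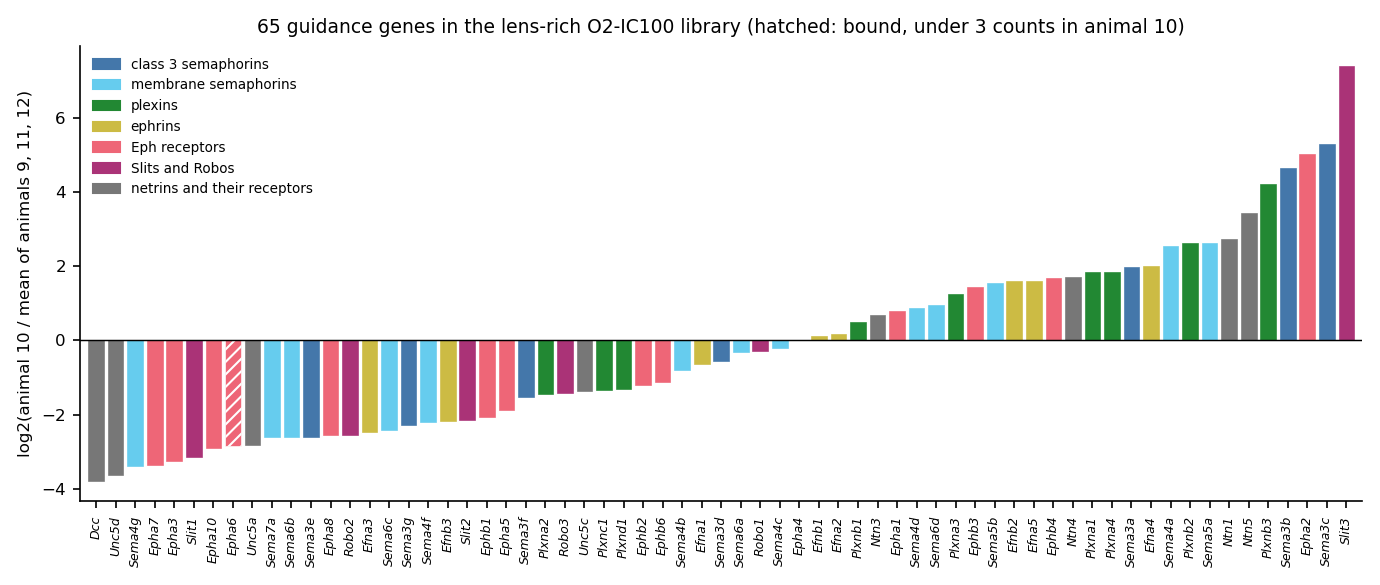
log2 ratio of the normalized CPM of O2-IC100 animal 10 to the mean of animals 9, 11 and 12 for all 65 guidance genes, ordered by size and coloured by role. The hatched bar is a bound, because animal 10 had under 3 counts of Epha6. Ratios run from -3.78 for Dcc to 7.39 for Slit3. All depend on the TMM factor of 0.324 in animal 10 and would be lower relative to total counts.

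By mean level in RA-PBS, the guidance genes spanned 0.165 CPM per kb for Ntn5 to 33.5 CPM per kb for Sema3f when counts were divided by merged exon length. The Plxnb3 mean, 0.361 CPM per kb, rested on animal 4, which was rich in oligodendrocyte RNA. That gene had 9.00 CPM there against 0 to 0.333 CPM in the other RA-PBS retinas, and it ranked 65, the lowest, in O2-PBS. In RA-PBS the highest after Sema3f were Sema7a at 15.9 CPM per kb, Plxnb1 at 14.3, Plxnb2 at 13.0, Sema4g at 10.4 and Plxna2 at 10.4 CPM per kb. Their ranges over the 4 retinas overlapped from one to the next, with the exception of Sema3f. The 8 members that changed were all in the lower part of this RA-PBS order, between rank 40 (Sema3b, 2.68 CPM per kb) and rank 63 (Ntn1, 0.277 CPM per kb). Their places depend on the group ranked, since RA-PBS is also the baseline of the O2 calls. In O2-PBS, Plxnd1 ranked 12, Sema3b 24 and Efna1 29, while Ephb4 ranked 42, Sema3c 57, Ntn1 60 and Sema3d 62. Plxnd1 was at 2.20 CPM per kb in RA-PBS.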

How the data were processed

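RNA-seq was performed with 150 bp paired-end reads on polyA RNA from 12 retinas. The authors quantified transcripts with Kallisto and summarised them with tximport, and deposited estimated counts per gene, of which 42.2% are not whole numbers. These expected counts were rounded. Symbols were matched by Ensembl ID, merged exon lengths came from GENCODE M21 and promoters from RefSeq, both GRCm38, whereas the study's methods give GRCm39. No GRCm39 coordinate is printed.

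Counts were fitted in R 4.3.3 with edgeR 4.0.16 (TMM, filterByExpr, robust quasi-likelihood, 3 groups in 1 fit) over all genes, with Benjamini-Hochberg adjustment, for 12 retinas and for 11 without O2-IC100 animal 10. The script was tested on simulated data. DESeq2 1.42.0, limma 3.58.1 (voom), other filters, size factors and covariates, and leaving out each retina were the alternatives. Each library came from a different animal. Total counts ran from 14907143 to 24438082, and limits from 3 counts cover counting error only.

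Genes past the thresholds were named, with fixed guidance genes of known role. Other members named were chosen after their values were seen. The members and lists were chosen with earlier results of these data known.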

Additional observations from a re-analysis of the deposited data

Results flagged for a closer look

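In 28 of 102 groups of 4 retinas, 1 retina stood far from the other 3 by Dixon's criterion at 0.829, where chance gives about 1 in 20. Of these, 19 were in O2-IC100 animal 10. In that retina the higher values, in normalized CPM, were Ephb4 at 24.5, Ntn1 at 5.05, Sema3b at 272, Sema3c at 206, Sema6d at 40.8, Sema3a at 42.3, Efnb2 at 88.6, Epha2 at 171, Ntn4 at 38.8, Nrp2 at 29.0, Ntn5 at 2.02 and Plxnb3 at 2.40. Its oligodendrocyte sum was 535 and its lens sum 1.01667e+06 normalized CPM, on a scale set by its TMM factor of 0.324. The lower values were Plxna2 at 55.7, Sema3f at 60.7, Robo2 at 11.9, Unc5c at 13.1 and Dcc at 1.77 CPM.

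In RA-PBS, animal 3 was high in Plxnd1 at 22.9 CPM (others 13.4 to 14.1) and in Epha2 at 10.8 CPM (others 4.30 to 5.22). Animal 4 was low in Robo1 at 16.1 CPM and high in Plxnb3 at 9.00 CPM and in the oligodendrocyte sum at 5544 CPM. In O2-PBS, animal 7 was low in Ephb1 at 14 CPM (others 15.6 to 15.9), animal 5 was high in Epha2 at 18.6 CPM and in Dcc at 33.2 CPM, and animal 6 was high in the lens sum at 68.8 CPM.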

How the results depend on the processing

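Counts of members called with 12 retinas moved as follows. For O2-PBS against RA-PBS, 1 became 3 with DESeq2, 6 with only those groups in the fit, 23 with the lens sum as covariate, 7 without animals 1 and 10 and 9 without animals 3, 4 and 10. Over all genes, 133 calls became 412, 867, 2766, 968 and 1527. For O2-IC100 against O2-PBS, 0 became 1 with DESeq2 (125 genes), 18 with Y-linked RNA as covariate (3484 genes), 4 without animals 1 and 10 (282) and 7 without animals 3, 4 and 10 (477). Low Y-linked RNA set animal 10 alone apart within O2-IC100, so that covariate can hardly be told from the lens-rich library with 12 retinas. For O2-IC100 against RA-PBS, 0 became 33 with the lens covariate (3515 genes), 1 without animals 1 and 10 (315) and 10 without animals 3, 4 and 10 (1150). With 11 retinas, the 3 calls for O2-IC100 against O2-PBS became 6 with only those groups (789 genes), 0 at an adjusted p under 0.05, 0 with the Y-linked covariate and 7 without animals 3 and 4 (477 genes). The 1 call for O2-IC100 against RA-PBS became 4 with DESeq2 (566 genes), 5 with the lens covariate (1549), 10 without animals 3 and 4 (1150), and 0 with voom, with no filter, with only those groups and at an adjusted p under 0.05. Leaving out 1 retina gave 0 to 7, 0 to 3 and 0 to 1 calls with 12 retinas, the high ends without animal 10. With 11 retinas it gave 5 to 8, 0 to 4 and 0 to 8, where the last 8 needed RA-PBS animal 4 left out. Over all genes the same fits gave 32 to 1046, 0 to 158 and 0 to 261 calls with 12 retinas. With 11 retinas they gave 784 to 1343, 0 to 432 and 21 to 925. The causes were not tested. Of 1980 gene values, 1870 kept their side of the thresholds and 78 changed sign, over 22 pairs of gene and comparison, and 0 of those 78 were called. The alternative without animals 1 and 10 was planned in the belief that animal 1 was lens-rich, whereas animal 3 was. No paired analysis was possible because each animal number occurs in 1 group. Depth limits genes near 3 counts.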
